A study of Sus scrofa with 24 samples.

Results

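The cytosolic viral RNA sensors are the pig genes DDX58, DHX58, IFIH1 and EIF2AK2. Here they were followed in the liver of 24 pigs (Sus scrofa), as 4 of 5483 genes that the array named. Every non-control probe of the array whose listed gene name, description or accession named 1 of these genes was taken, which gave 6 of 43603 probes. DDX58 and IFIH1 had 2 probes each, and DHX58 and EIF2AK2 had 1 probe each. The 4 genes were chosen by their measured values in these same livers, so their group differences are given as a description, with no p. Counts of their probes past a threshold stand below beside the share of all probes, and nothing is read from them. All 6 probes passed the filter on dim probes, which kept 29665 probes.

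Each pig gave 1 array, and the labels describe 8 pigs per group, with a body weight of 115 kg throughout. RFIneg pigs came from the strain with low residual feed intake (RFI, the feed eaten beyond what growth and upkeep predict) and ate ad libitum. RFIpl pigs came from the high RFI strain and also ate ad libitum. RFIplR pigs had high RFI and were held to the amount eaten by RFIneg pigs. Litter, sex and health of the pigs were not used here. The tissue was whole frozen liver, so fewer cells of a type and less RNA per cell cannot be told apart.

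Of the 8 hepatocyte markers looked for, 6 were on the array under their names. Each of them (ALB, TTR, APOA1, SERPINA1, TF and HNF4A) was well above background in 24 of 24 livers, and ALB lay between 9.26 and 9.59 on the log2 scale used below. Between 63.2% and 72.7% of the spots of an array were well above background. The arrays lay on 6 slides of 4, read on 2 scan days.

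DDX58 encodes RIG-I, IFIH1 encodes MDA5 and DHX58 encodes LGP2, which together form the RIG-I-like receptor family of cytosolic RNA helicases. RIG-I binds short double-stranded RNA with a triphosphate at its 5′ end, and MDA5 binds long double-stranded RNA. Both signal through the mitochondrial adaptor MAVS to the interferon regulatory factors, and type I interferon then acts through its receptor and the JAK-STAT relay on many genes, the sensors themselves included. LGP2 lacks the signalling domains of its relatives and modulates them. EIF2AK2 encodes PKR, a kinase that double-stranded RNA activates and that halts translation by phosphorylating the initiation factor eIF2 alpha.

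The following 60-base probes carried the DHX58, IFIH1 and EIF2AK2 values and are shown because each gene is known here only through these short stretches. They are written as in the scanner output, in lower case, with capitals for the TGA with which the second IFIH1 probe ends.
DHX58 A_72_P213717: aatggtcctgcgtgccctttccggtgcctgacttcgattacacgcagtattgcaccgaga
IFIH1 A_72_P066761: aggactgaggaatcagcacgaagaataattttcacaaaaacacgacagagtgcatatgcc
IFIH1 A_72_P088691: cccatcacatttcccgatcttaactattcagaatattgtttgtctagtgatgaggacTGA
EIF2AK2 A_72_P441748: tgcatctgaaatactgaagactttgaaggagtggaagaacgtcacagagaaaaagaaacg

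The IFIH1 probes began at bases 2130 and 3012 of the listed transcript, so they read stretches that do not overlap. The DHX58 probe began at base 2202 and the EIF2AK2 probe, named PKR in the scanner output, at base 1750. The DDX58 probes, A_72_P223287 and A_72_P496286, began at bases 3964 and 3504 of theirs. G and C made up 35.0% of either DDX58 probe, 55.0% of the DHX58 probe, 40.0% of the EIF2AK2 probe, and 41.7% and 38.3% of the IFIH1 probes in the order printed. None of the 6 shared a run of 16 bases with any other probe on the array. All 6 were well above background in 24 of 24 livers.

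Levels below are log2 of the processed signal minus the 75th percentile of the array. A level of 0 is the 75th percentile of the spots of that array, and a difference of 1 is a doubling of signal. Brightness depends on the probe as well as on the RNA, so levels are compared between pigs and not between genes.

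Among the sensors, the largest differences lay between pigs of the RFIpl group and not between the groups. RFIpl pigs 5 and 7 held the highest 2 of the 24 levels on each of the 6 probes, and the other RFIpl pigs lay among or below the pigs of the other groups. The pair was singled out with these genes' values in view, so what follows describes it and tests nothing.

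DDX58 (RIG-I), read by A_72_P223287, had a lowest, median and highest level of -1.85, -1.09 and -0.71 in RFIneg pigs. The corresponding RFIpl levels were -2.12, -1.56 and 1.001, and those of RFIplR pigs were -2.12, -1.41 and 0.35. RFIneg livers were close together, while the other groups each held low and high livers and spanned the whole RFIneg range. RFIpl 5 was at 1.001 and RFIpl 7 at 0.92, which is 5.47 and 5.15 times the median signal of the other 22 pigs. RFIplR 2 followed at 0.35, or 3.48 times that median, and RFIplR 3 at -0.59. Next below them came RFIneg 2 at -0.71. At the low end were RFIpl 8 and RFIplR 5, both at -2.12, and RFIpl 6 at -2.11.

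The second DDX58 probe, A_72_P496286, placed the same 4 pigs highest. Its lowest, median and highest levels were -1.89, -1.57 and -1.05 in RFIneg, -2.07, -1.75 and 0.68 in RFIpl, and -2.65, -1.53 and 0.20 in RFIplR pigs. RFIpl 5, RFIpl 7, RFIplR 2 and RFIplR 3 again took the highest 4 places, at 0.68, 0.62, 0.20 and -0.71. The low end differed, with RFIplR 5 at -2.65 below RFIpl 8 at -2.07 and RFIpl 1 at -2.03. Over the 22 pigs without RFIpl 5 and 7 the DDX58 probes had a Pearson r of 0.91.

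IFIH1 (MDA5), read by A_72_P088691, had a lowest, median and highest level of 0.58, 0.88 and 1.58 in RFIneg pigs. Its RFIpl levels were 0.56, 1.05 and 2.51, and its RFIplR levels were 0.41, 0.99 and 1.36. RFIpl 5 and RFIpl 7 both stood at 2.51, or 3.07 times the median signal of the other 22 pigs, and all remaining livers of the 3 groups overlapped. RFIneg 5 came next at 1.58, then RFIplR 3 at 1.36.

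On the other IFIH1 probe, A_72_P066761, the levels were -1.54, -1.24 and -0.18 in RFIneg, -1.57, -0.87 and 0.70 in RFIpl, and -1.49, -1.16 and -0.56 in RFIplR pigs. RFIpl 7 was the highest at 0.70, ahead of RFIpl 5 at 0.58 and RFIneg 5 at -0.18. The places of these pigs were thus alike on both probes, which had an r of 0.75 over the other 22 pigs.

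DHX58 (LGP2), the regulator of the family, had a lowest, median and highest level of -0.67, -0.50 and 0.43 in RFIneg pigs. Its RFIpl levels were -1.05, -0.59 and 1.81, and its RFIplR levels were -0.85, -0.57 and 0.19. The lowest and the highest of the 24 livers were both RFIpl pigs. RFIpl 7 stood at 1.81 and RFIpl 5 at 1.61, which is 5.23 and 4.56 times the median signal of the others. RFIneg 5 was next at 0.43, or 2.01 times that median, and RFIplR 2 followed at 0.19.

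EIF2AK2 (PKR), the kinase among the sensors, had a lowest, median and highest level of 1.13, 1.98 and 3.09 in RFIneg pigs. Its RFIpl levels were 1.83, 2.08 and 3.83, and its RFIplR levels were 1.75, 2.04 and 2.68. RFIpl 5 at 3.83 and RFIpl 7 at 3.81 had 3.51 and 3.46 times the median signal of the other 22 pigs. RFIneg pigs held both the next highest level, 3.09 in RFIneg 5, and the lowest of all, 1.13 in RFIneg 8. RFIpl 4, at 2.81, came after RFIneg 5.

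**Figure D1:**
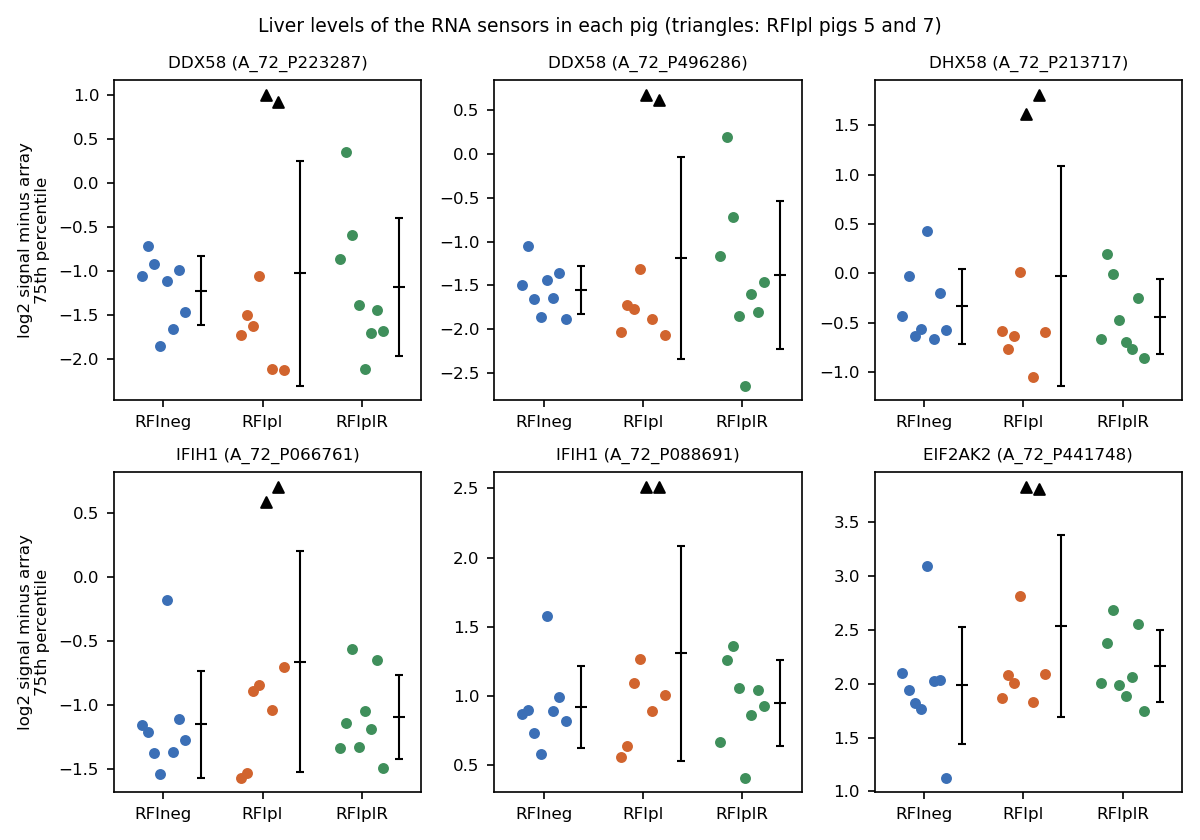
Each panel plots 1 probe, with 1 point per pig in each group of 8 (vertical axis: log2 signal minus the 75th percentile of the array; the vertical axes differ between panels), and the bar beside each group shows mean ± SD. RFIpl pigs 5 and 7 (triangles) stand above the other 22 pigs in all 6 panels, and the remaining points of the 3 groups overlap.

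In the pigs below this pair the sensors were not evenly high. RFIneg 5 lay 1.01 above the 22-pig median for DHX58, 1.07 above for EIF2AK2 and 0.69 above for IFIH1 (A_72_P088691), in place 3 of 24 for each. For DDX58 it lay only 0.33 above (A_72_P223287), in place 11 of 24. RFIplR 2 had the reverse pattern, at 1.80 above for DDX58 and 0.77 above for DHX58, but 0.36 above for EIF2AK2 and 0.37 above for IFIH1 (A_72_P088691). RFIplR 3 was between places 4 and 6 on all 6 probes. Slide 3 was the dimmest by the share of its spots above background, and it held RFIpl 5, RFIneg 5 and RFIplR 2 beside RFIplR 6, which was near the median. RFIpl 7 was on slide 6 and scanned on the other day. Without slide 3 the DDX58 difference of RFIpl minus RFIneg given below was -0.08 (A_72_P223287), and the part of the slide in these patterns was not tested otherwise.

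**Figure D2:**
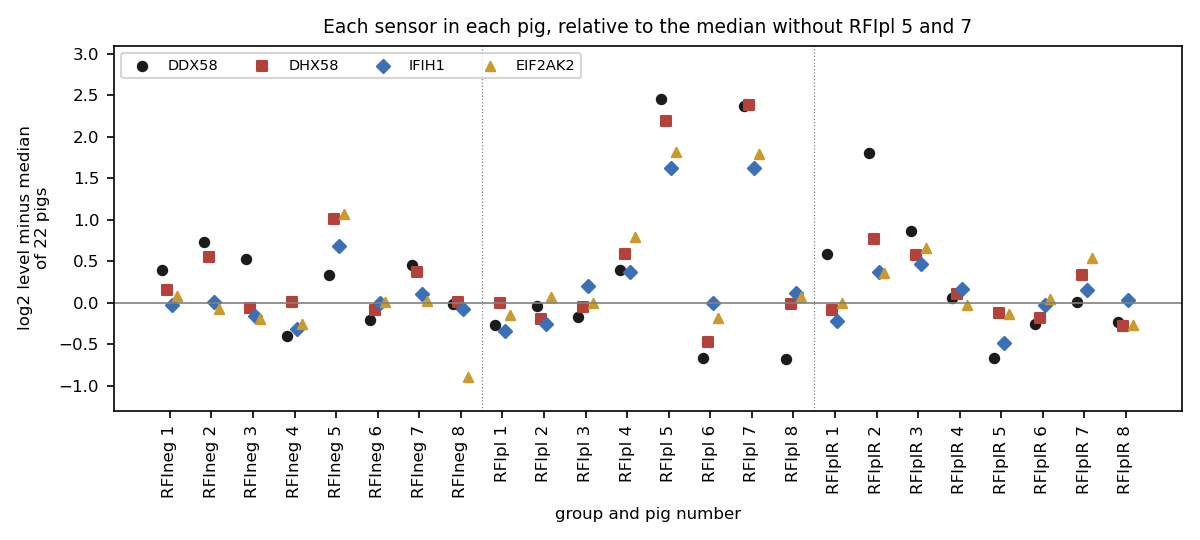
For each pig (horizontal axis, by group and number) the plot gives the level of each sensor minus the median of the 22 pigs other than RFIpl 5 and 7 (vertical axis, log2; the brightest probe of each gene). In RFIpl 5 and 7 all 4 genes lie between 1.62 and 2.45; RFIplR 2 is high for DDX58 (1.80) and RFIneg 5 for EIF2AK2 (1.07) and DHX58 (1.01).

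The spread between livers was wide for these genes. The pooled SD within groups was 0.89 for DDX58 (A_72_P223287), 0.71 for DHX58, 0.61 for EIF2AK2 and 0.51 for IFIH1 (A_72_P088691), against a median of 0.27 over all 29665 probes. Of those probes, 97.8% varied less than DDX58 and 87.5% varied less than IFIH1. Without RFIpl 5 and 7 the pooled SD was 0.57 for DDX58, 0.37 for DHX58, 0.43 for EIF2AK2 and 0.29 for IFIH1. DDX58 then still varied more than 91.3% of the probes, whereas IFIH1 varied more than 58.3%.

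Line at free intake was compared first, RFIpl against RFIneg. Mean DDX58 (A_72_P223287) was -1.03 ± 1.27 in RFIpl and -1.22 ± 0.39 in RFIneg pigs, and mean DHX58 was -0.02 ± 1.11 and -0.33 ± 0.38 (SD, n = 8 each). IFIH1 (A_72_P088691) was 1.31 ± 0.78 in RFIpl and 0.92 ± 0.30 in RFIneg pigs, and EIF2AK2 was 2.54 ± 0.84 and 1.99 ± 0.54. All means were thus higher in RFIpl pigs, by less than the SD of the RFIpl group. In medians the order of the groups was RFIneg, RFIplR, RFIpl from high to low for DDX58 (A_72_P223287) and RFIpl, RFIplR, RFIneg for EIF2AK2, and no neighbours in either order differed beyond their spread.

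The difference of RFIpl minus RFIneg means was 0.20 (SE 0.42) for DDX58 on A_72_P223287 and 0.36 (SE 0.40) on A_72_P496286. It was 0.31 (SE 0.34) for DHX58, 0.55 (SE 0.29) for EIF2AK2, and 0.49 (SE 0.28) and 0.39 (SE 0.24) for IFIH1 on A_72_P066761 and A_72_P088691. With limma and Benjamini-Hochberg adjustment over all probes, 48 of 29665 probes (0.162%) passed the threshold of 0.05, and 0 of the 6 sensor probes were among them. At an unadjusted p under 0.05 the count was 2860 probes in all (9.64%) and 0 of 6 sensor probes.

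Without RFIpl 5 and 7 the RFIpl minus RFIneg difference was -0.47 (SE 0.29) for DDX58 on A_72_P223287 and -0.25 (SE 0.28) on A_72_P496286. It was -0.27 (SE 0.19) for DHX58, 0.13 (SE 0.22) for EIF2AK2, and 0.06 (SE 0.19) and -0.01 (SE 0.16) for IFIH1. The sign of the DDX58, DHX58 and IFIH1 (A_72_P088691) differences thus depended on these pigs. Either pig alone was enough for DDX58 on A_72_P223287, at -0.09 without RFIpl 5 and -0.08 without RFIpl 7.

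Feeding level within the high RFI strain was compared next, RFIplR against RFIpl. RFIplR means were -1.18 ± 0.78 for DDX58 (A_72_P223287), -0.44 ± 0.38 for DHX58, 0.95 ± 0.31 for IFIH1 (A_72_P088691) and 2.16 ± 0.33 for EIF2AK2 (SD, n = 8 each). RFIplR minus RFIpl was -0.15 (SE 0.42) and -0.19 (SE 0.40) on the DDX58 probes, -0.41 (SE 0.34) for DHX58, -0.38 (SE 0.29) for EIF2AK2, and -0.43 (SE 0.28) and -0.36 (SE 0.24) on the IFIH1 probes. No probe passed in this comparison: 0 of 29665 (0%) and 0 of 6, with 1594 (5.37%) and 0 of 6 at an unadjusted p under 0.05 by limma.

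Leaving out RFIpl 5 and 7, RFIplR minus RFIpl became 0.51 (SE 0.29) and 0.42 (SE 0.28) on the DDX58 probes and 0.16 (SE 0.19) for DHX58. EIF2AK2 then differed by 0.05 (SE 0.22) and IFIH1 by 0.00 (SE 0.19) and 0.04 (SE 0.16). All 6 differences had been below 0 with these pigs included, and they share the RFIpl arrays with the comparison of the lines.

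The strains at the same feeding level, RFIplR against RFIneg, do not involve the RFIpl arrays. The differences were 0.04 (SE 0.42) and 0.17 (SE 0.40) for DDX58, -0.10 (SE 0.34) for DHX58, 0.18 (SE 0.29) for EIF2AK2, and 0.06 (SE 0.28) and 0.03 (SE 0.24) for IFIH1. Each was smaller than its SE, and also than its SE in the fit without RFIpl 5 and 7 (0.14 to 0.27). In this comparison 68 of 29665 probes (0.229%) passed and 0 of 6 sensor probes did, while 3792 (12.78%) and 0 of 6 had an unadjusted p under 0.05 by limma. Over all probes the median difference was 0.00, -0.01 and -0.01 in the order of the comparisons given here.

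Within scan days the differences varied in size. RFIpl minus RFIneg for EIF2AK2 was 0.23 on the first day and 0.71 on the second, and for DHX58 it was 0.02 and 0.50. For IFIH1 (A_72_P088691) it was 0.18 and 0.51, and for DDX58 (A_72_P223287) 0.14 and 0.18. RFIplR minus RFIneg changed sign between the days for EIF2AK2, at -0.37 and 0.64, for DHX58, at -0.45 and 0.18, and for IFIH1, at -0.19 and 0.16. Each day held only part of the 8 pigs of a group, so single pigs weigh heavily. RFIneg 5, at 3.09 for EIF2AK2, was read on the first day, and RFIneg 8, the lowest at 1.13, on the second. An effect of the day itself was not tested. RFIplR minus RFIpl stayed below 0 on both days for all 4 genes, between -0.60 and -0.07. RFIpl 5 was read on the first day and RFIpl 7 on the second, so the RFIpl mean of either day holds 1 of them. The same sign on both days is thus not independent of this pair.

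**Figure D3:**
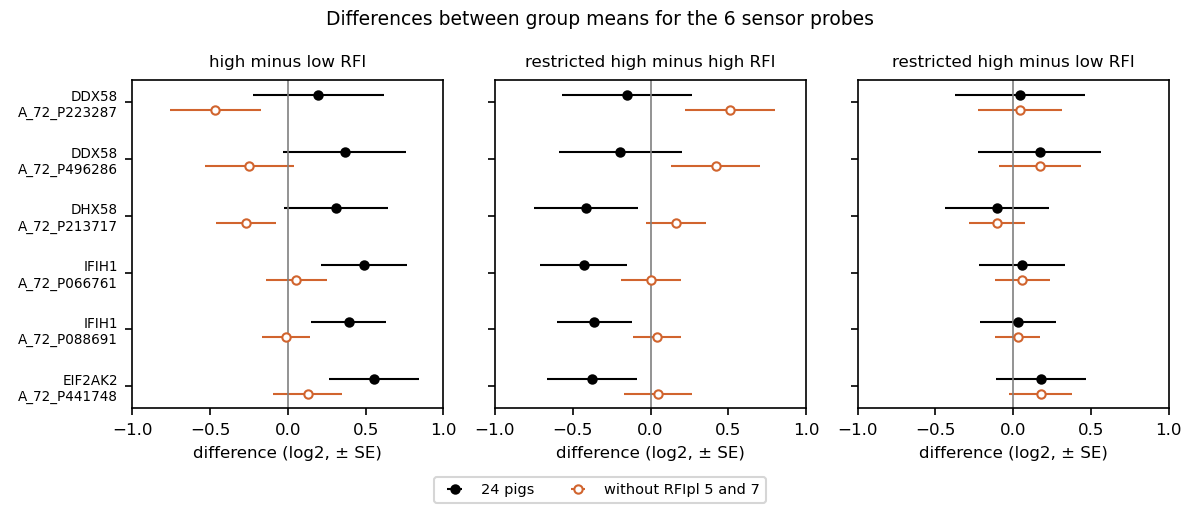
Differences between group means (horizontal axis, log2, with bars of ± 1 SE) for the 6 sensor probes in each of the 3 comparisons, over 24 pigs (filled points) and without RFIpl 5 and 7 (open points). In the left panel the DDX58 points move from 0.20 and 0.36 to -0.47 and -0.25. In the right panel, where the RFIpl arrays enter only the SE, the points stay in place and the bars narrow.

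How the sensors varied together was described over the 22 pigs other than RFIpl 5 and 7, since these stood apart. No p is given, because the genes were chosen with such values known. DHX58 went with every other sensor, with Pearson r of 0.70 with DDX58, 0.72 with EIF2AK2 and 0.73 with IFIH1. Spearman's rho for the same pairs was 0.64, 0.56 and 0.61. EIF2AK2 and IFIH1 had an r of 0.73 and a rho of 0.62.

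DDX58 went less closely with IFIH1 and EIF2AK2 than with DHX58. Its r was 0.47 with IFIH1 (rho 0.43) and 0.38 with EIF2AK2 (rho 0.39). When the 2 pigs farthest from the median DDX58 level, RFIplR 2 and RFIplR 3, were also left out, these values were 0.30 and 0.27, and that with DHX58 was 0.60. Other pairs fell too. Without the 2 pigs farthest for DHX58, RFIneg 5 and RFIplR 2, its r was 0.59 with EIF2AK2 and 0.56 with IFIH1. EIF2AK2 and IFIH1 had 0.71 without the 2 farthest for EIF2AK2, RFIneg 5 and RFIneg 8. Within the scan days, of 11 pigs each, DDX58 and DHX58 had an r of 0.71 and 0.75, and EIF2AK2 and IFIH1 had an r of 0.81 and 0.60. The difference between these correlations was not tested.

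**Figure D4:**
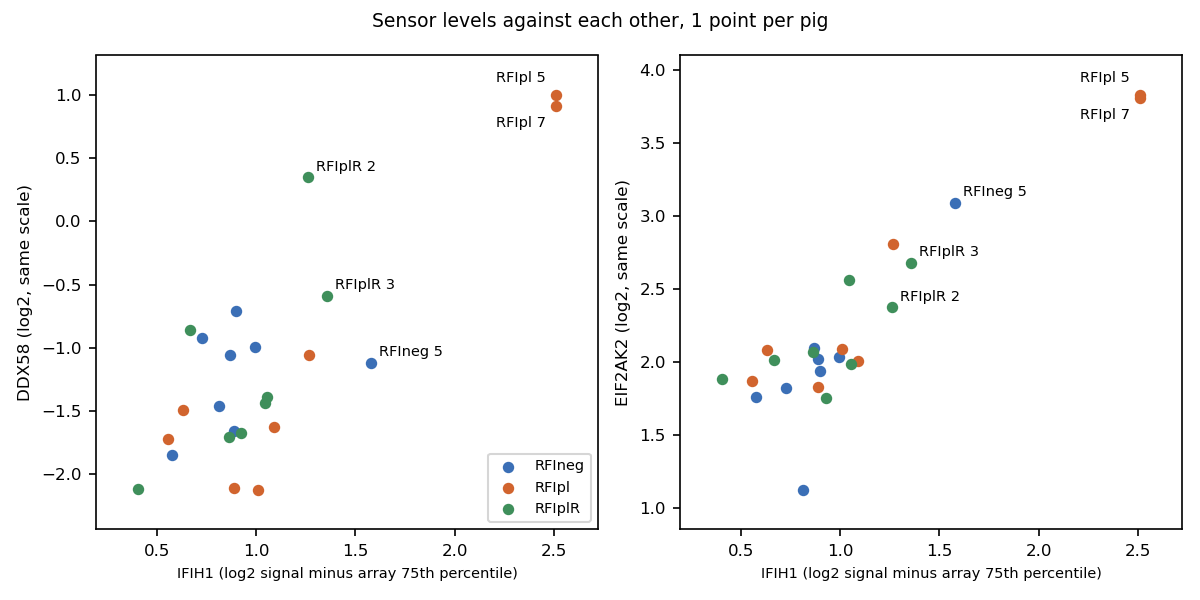
Levels of DDX58 (left) and EIF2AK2 (right) against IFIH1, 1 point per pig coloured by group (both axes: log2 signal minus the 75th percentile of the array). RFIpl 5 and 7 lie far up and to the right in both panels. Without them r is 0.47 on the left and 0.73 on the right. On the left, RFIplR 2 lies 1.80 above the 22-pig median for DDX58 and 0.37 above for IFIH1.

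The genes most like the sensors were sought by correlating the mean of the 4 genes with 4373 other named genes. Over all 24 pigs the closest were ISG15 (r = 0.96), a ubiquitin-like protein joined to others after interferon, IRF9 (0.96), a DNA-binding part of the interferon-activated transcription complex, and IFIT1 (0.95), which binds viral RNA. USP18 (0.95), which removes ISG15, IFIT3 (0.94) and RSAD2 (0.93), the antiviral enzyme viperin, followed. Over the 22 pigs without RFIpl 5 and 7 the first 6 were ISG15 (0.87), IFIT1 (0.85), IRF9 (0.85), USP18 (0.82), IFIT3 (0.78) and LGALS9 (0.75), a galectin. RSAD2 was then in place 8, at 0.73. The median r was -0.04 over the 4373 genes, and 45 genes (1.03%) were above 0.5.

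In RFIpl 5 and 7 the genes that interferon is known to induce stood with the sensors. Of 29665 probes, 394 (1.33%) were higher in both pigs than in each of the other 22, and all 6 sensor probes were among them. Because the sensors were chosen with these levels in view, nothing is read from that count. Of the 18 interferon-induced antiviral effectors measured, out of 37 looked for, 14 did the same. They were BST2, DDX60, GBP2, IFIT1, IFIT2, IFIT3, ISG15, LOC100151816, OAS1, OAS2, OASL, RSAD2, TRIM21 and USP18, while GBP1, MX1, MX2 and SAMHD1 did not.

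RSAD2 was at 4.34 and 5.02 in RFIpl 5 and 7, against -1.25 to 1.66 in the other 22 pigs. ISG15 was at 7.60 and 8.18 against 2.72 to 5.49, and OAS1, which double-stranded RNA activates to make short oligoadenylates, was at 5.14 and 5.45 against -0.24 to 2.33. These gaps above the 22-pig median were 4.66 and 5.34 for RSAD2, 3.70 and 4.28 for ISG15, and 4.13 and 4.44 for OAS1. The mean of the effector list by pig, each gene centred over the 24 pigs, was 1.97 in RFIpl 5 and 2.31 in RFIpl 7 and between -0.62 and 0.65 in the others. The highest of those others was RFIneg 5 at 0.65, and RFIplR 2 was at 0.40.

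Genes that pass the sensors' signal on were mostly outside this pattern. Of 20 measured genes of RIG-I-like receptor signalling, DDX60 and IRF7 were higher in both pigs than in all others. IRF7, a regulator of interferon genes that is itself induced by interferon, was at 2.75 and 3.27 against 0.21 to 1.44. MAVS, TBK1, IRF3 and 15 more of that list were not. Neither were any of the 8 genes that restrain the pathway, the 9 of the PKR and eIF2 alpha branch, or the 16 other DEAD/DEAH box helicases with DICER1.

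Among 19 genes of the interferon receptor and JAK-STAT relay, 4 were above all other pigs in both. IRF9, PTPN6 and USP18 were among these, and the receptor genes IFNAR1 and IFNAR2 were not. IRF9 was at 2.43 and 2.40 against 1.03 to 1.73. Of 18 other nucleic acid and microbial sensors, 9 were above all other pigs in both, and these included DDX60, IFIT1, LOC100151816, OAS1, OAS2, OASL, TLR3 and ZBP1. All of those named but TLR3 and ZBP1 are also on the effector list, as is USP18, so the lists are not independent. TLR3, the endosomal receptor for double-stranded RNA, was at 2.105 and 2.57 against 1.01 to 1.96. ZBP1, which senses nucleic acid in the Z form, was at -0.66 and -0.60 against -3.66 to -2.23.

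No marker of immune or other liver cells was raised above all other pigs in both of this pair. The hepatocyte sums of both pigs lay outside the range of the others, and the endothelial sum of RFIpl 7 lay just outside it. None of the 12 T and NK cell, 3 Kupffer cell and macrophage, 6 neutrophil and monocyte, 7 endothelial or 6 hepatocyte markers measured was higher in both RFIpl 5 and 7 than in all others. Likewise 0 of 1 marker each of B and plasma cells, dendritic cells and red blood cells was. The summed T and NK cell signal, in multiples of the array's 75th percentile, was 11.4 and 10.1 in the pair and between 7.50 and 12.6 in the other 22 pigs. By group it ranged from 7.50 to 10.6 in RFIneg, 8.86 to 12.6 in RFIpl and 7.76 to 11.9 in RFIplR pigs. The summed Kupffer cell signal was 31.7 and 38.7 in the pair against 23.5 to 59.2, and that of neutrophils and monocytes was 36.0 and 42.5 against 35.0 to 48.4.

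The summed endothelial signal was 23.7 in RFIpl 5 and 21.6 in RFIpl 7, against 21.7 to 38.5 in the other 22 pigs, so RFIpl 7 lay just below all of them. The mean of the 7 markers, each centred over the 24 pigs, was -0.34 and -0.45 in the pair. That was inside the range of the others, -0.55 to 0.43. Of 7 endothelial markers, 5 (CDH5, CLEC4G, KDR, PECAM1 and STAB1) were below the 22-pig median in both pigs. KDR, a receptor for vascular endothelial growth factor, was the farthest, at -1.11 and -1.55 from that median. The summed hepatocyte signal was 1990 in RFIpl 5 and 2430 in RFIpl 7 against 2026 to 2410, so the pair lay outside the others on opposite sides. By group the endothelial sum ranged from 21.7 to 37.5 in RFIneg, 21.6 to 36.6 in RFIpl and 24.2 to 38.5 in RFIplR pigs. The part of these cells in the sensor levels was not tested.

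**Figure D5:**
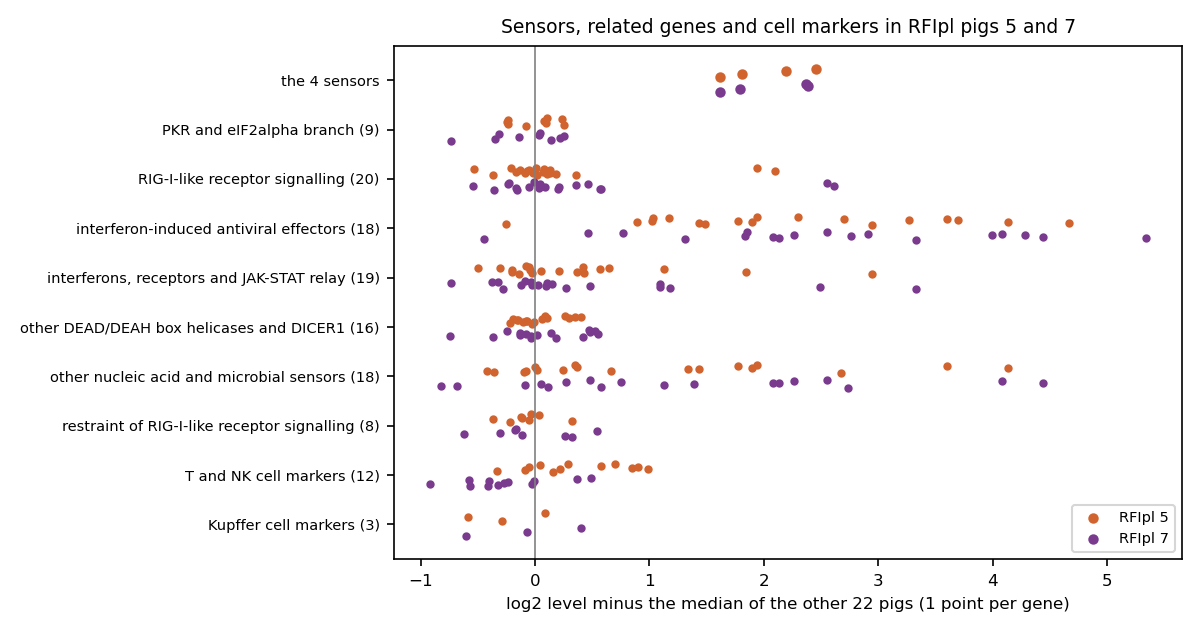
Each point is 1 gene in RFIpl 5 (orange) or RFIpl 7 (purple), placed by its log2 level minus the median of the other 22 pigs (horizontal axis), in rows for the 4 sensors, 7 lists of related genes and 2 lists of cell markers, with the number of genes in brackets. The sensors lie between 1.62 and 2.45 and antiviral effectors reach 5.34 (RSAD2), while the PKR branch and the restraint list lie around 0.

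Across the groups, none of 99 different genes on the 7 lists passed an adjusted p of 0.05 by limma in any of the 3 comparisons. At an unadjusted p under 0.05 there were 19 (19.19%) in RFIpl minus RFIneg, of which 14 were higher and 5 lower in RFIpl pigs. The corresponding counts were 5 (5.05%) in RFIplR minus RFIpl and 7 (7.07%) in RFIplR minus RFIneg. Over all 29665 probes those shares were 9.64%, 5.37% and 12.78%.

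In RIG-I-like receptor signalling, 0 of 20 genes passed in any comparison, with median differences of 0.01, 0.00 and -0.03 for RFIpl minus RFIneg, RFIplR minus RFIpl and RFIplR minus RFIneg. The smallest adjusted p of any listed gene was that of TRAF6, the ubiquitin ligase that links MAVS to NF-kappaB, at -1.10 in RFIplR minus RFIneg (SE 0.26, adjusted p = 0.0729). Its mean was 1.82 ± 0.19 in RFIneg, 1.16 ± 0.28 in RFIpl and 0.72 ± 0.90 in RFIplR pigs (SD, n = 8 each). Next in that comparison were ZCCHC3 at -0.22 (adjusted p = 0.257) and CHUK at 0.21 (adjusted p = 0.306). In RFIpl minus RFIneg the first 3 were TRAF6 at -0.66 and ZCCHC3 at -0.21 (both adjusted p = 0.411) and HSP90AA1 at 0.33 (adjusted p = 0.507). RFIplR minus RFIpl had CHUK at 0.23, TRAF3 at -0.33 and RELA at -0.15, with adjusted p of 0.866, 0.917 and 0.926.

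Without RFIplR 1 or without RFIplR 3, TRAF6 passed in RFIplR minus RFIneg, at -1.23 (adjusted p = 0.0323) and -1.22 (adjusted p = 0.0432) by limma. With any other single pig left out it did not pass in that comparison. TRAF6 also passed in RFIpl minus RFIneg when only these groups entered the fit, at -0.66 (adjusted p = 0.0316).

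In the restraint list, 0 of 8 genes passed and the medians were -0.04, -0.08 and -0.08. The smallest p in RFIpl minus RFIneg belonged to USP15 at 0.27, MARCH5 at 0.22 and PPP1CA at -0.15, with adjusted p of 0.446, 0.449 and 0.623. NLRC5, USP21 and MARCH5 came first in RFIplR minus RFIpl, at -0.15, -0.12 and -0.12. PPP1CC, USP21 and USP15 came first in RFIplR minus RFIneg, at -0.12, -0.12 and 0.13.

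Around EIF2AK2, 0 of 9 genes of the PKR and eIF2 alpha branch passed, with medians of -0.02, 0.03 and -0.02. EIF2B1, PRKRA (the protein activator of PKR) and EIF2S1, which encodes eIF2 alpha, came first in RFIpl minus RFIneg, at -0.13, -0.22 and -0.12. DNAJC3, an inhibitor of PKR, was at 0.19 in RFIplR minus RFIpl (adjusted p = 0.940), ahead of EIF2S1 at 0.14 and DDIT3 at -0.13. It was at 0.21 in RFIplR minus RFIneg (adjusted p = 0.473), ahead of EIF2B1 at -0.10 and EIF2S2 at -0.08.

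Among the interferon receptors and their relay, 0 of 19 passed, with medians of 0.07, -0.03 and 0.05. JAK2 at -0.28 (adjusted p = 0.317) and IRF1 at 0.32 (adjusted p = 0.438) were among the first 3 in RFIpl minus RFIneg. STAT3, a relay of interleukin signals, was at 0.89 in RFIplR minus RFIneg (SE 0.23, adjusted p = 0.0877), ahead of JAK2 at -0.17 and IFNAR1 at 0.13. IRF1 at -0.32, SOCS3 at 0.81 and IFNAR1 at 0.16 came first in RFIplR minus RFIpl, with an adjusted p of 0.915 for IRF1.

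The interferon-induced effectors had the largest median, 0.66 in RFIpl minus RFIneg, where 17 of 18 differences were above 0 and 0 of 18 passed. Without RFIpl 5 it was 0.45, without RFIpl 7 it was 0.39, and without both it was 0.00, with 8 of 18 above 0. This list was chosen with its levels in RFIpl 5 and 7 known, and 14 of its genes stood above all other pigs in both of them. GBP1 at 0.64 (adjusted p = 0.303), OAS2 at 1.01 (adjusted p = 0.393) and GBP2 at 0.41 (adjusted p = 0.399) had the smallest p. The median was -0.45 in RFIplR minus RFIpl, led by GBP1 at -0.44, OAS1 at -0.97 and LOC100151816 at -0.45. Without RFIpl 5 and 7 it was 0.12, with 16 of 18 above 0. These pigs were singled out for high levels, so their removal tends to lower RFIpl levels and to raise these differences. Nothing is read from that count. In RFIplR minus RFIneg the median was 0.17, led by OAS2 at 0.72, GBP2 at 0.22 and BST2 at 0.38. There 16 of 18 differences were above 0, against 48.68% of all probes, and 0 of 18 passed.

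Of the other nucleic acid and microbial sensors, 0 of 18 passed, with medians of 0.34, -0.16 and 0.13. The first of these was 0.10 without RFIpl 5 and 7, and part of this list is shared with the effectors. TLR2, the receptor for bacterial lipoproteins, was at -0.59 in RFIpl minus RFIneg (SE 0.17, adjusted p = 0.187), ahead of MYD88, the adaptor of most Toll-like receptors, at 0.38 (adjusted p = 0.223) and of OAS2. TLR2 at 0.38 and OAS1 were among the first 3 in RFIplR minus RFIpl. MYD88 at 0.38 (adjusted p = 0.151), NOD1 at 0.66 (adjusted p = 0.205) and OAS2 came first in RFIplR minus RFIneg.

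The remaining DEAD/DEAH box helicases and DICER1, relatives of the sensors in sequence and not known as a group for sensing virus, had 0 of 16 past the threshold and medians of 0.01, 0.02 and 0.07. DHX16 at -0.26 (adjusted p = 0.279), DDX31 at 0.30 (adjusted p = 0.459) and DHX32 at -0.28 (adjusted p = 0.570) came first in RFIpl minus RFIneg. DDX55 at 0.24, DHX16 at 0.13 and EIF4A3 at 0.10 came first in RFIplR minus RFIpl. DDX20 at 0.39, DHX32 at -0.27 and DDX31 at 0.22 came first in RFIplR minus RFIneg.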

How the data were processed

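Per the file headers, each 1-colour array held 45220 features, of which 1417 were controls, with Agilent Feature Extraction (10.7.3.1) as the scanner software. Its processed signal is the deposited intensity from which all values were computed. The authors also deposited log2 values for 27564 features, which equalled log2 of that signal minus the array median. The submitters' processing notes name R 2.10.0.

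Control and outlier spots were left out, and spots of a probe were averaged after subtracting the array's 75th percentile from log2 signal. Probes well above background on at least 6 of 8 arrays of a group were kept. Names came from accessions and symbols matched to RefSeq and pig gene tables, which gave 1 symbol to 12291 of 43603 probes. All 24 arrays were fitted by group with limma 3.58.1 in R 4.3.3 (lmFit, eBayes; Benjamini-Hochberg over 29665 probes; simulated data were used as a check). With several probes, a gene was read by its brightest. Python 3.11.15 and matplotlib 3.10.9 were also used.

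The sensors, gene lists and RFIpl pigs 5 and 7 were chosen with earlier results of these data known. Named are all sensors, listed genes that passed or else the 3 with the smallest p, and the 6 genes most like the sensors. Some listed genes are counted but not reported here by name. Other background correction, normalisation, filters, blocks, weights and left-out pigs were tried. The number of arrays limits the precision.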

Additional observations from a re-analysis of the deposited data

Results flagged for a closer look

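In 2 of the 18 sets of 8 levels looked at (6 probes in 3 groups), 1 pig lay past the Dixon limit at the 95% level. The genes were chosen with these levels in view and the sets share pigs. The limit thus serves only as a rule for flagging, and no chance rate is set against the count. Both flags were RFIneg 5 on an IFIH1 probe, and these probes read the same gene. On A_72_P066761 this pig was at -0.178 and the nearest RFIneg pig at -1.10, a gap of 0.68 of the group's range. On A_72_P088691 it was at 1.58 and the nearest at 0.99, a gap of 0.58 of the range. The same pig was the third highest of 24 for DHX58 and EIF2AK2. RFIpl 5 and 7 were not picked out in this way, since each lies close to the other.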

How the results depend on the processing

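Under every alternative run, 0 of 6 sensor probes passed, and the 4 sensors' differences moved by less than the pooled SD over 24 pigs, which RFIpl 5 and 7 widen. Leaving both out moved RFIpl minus RFIneg by 0.66 for DDX58, 0.58 for DHX58 and 0.40 for IFIH1 (A_72_P088691). These moves were more than the pooled SD without the pair (0.57, 0.37 and 0.29), and the differences became -0.47, -0.27 and -0.01. For EIF2AK2 the move was 0.43, about that SD (0.43). The IFIH1 value was smaller than its SE of 0.16, and on A_72_P066761 the difference stayed above 0, at 0.06 (SE 0.19). Both pigs were singled out as the highest, so a fall without them follows from that choice. DDX58 (A_72_P223287), RFIpl minus RFIneg, was -0.05 with array weights and ranged from -0.09 to 0.35 when 1 pig was left out. Its RFIplR minus RFIpl difference ranged from -0.37 to 0.14 in the same way. Of the listed genes, none passed in the fit used, and 1 passed under each of a few alternatives. These were STAT3 in RFIplR minus RFIneg with the replicate block (1 gene, adjusted p = 0.0352 by limma), TRAF6 in RFIpl minus RFIneg with only the groups compared (1 gene), and TRAF6 in RFIplR minus RFIneg without RFIplR 1 or 3 (range 0 to 1 gene over the left-out pigs). The cause was not tested.

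Counts over all probes varied more. For RFIpl minus RFIneg they were 48 in the fit used, 5 with normexp, 28 without the filter, 87 with array weights, 28 without slide 3, and 5 and 10 within the scan days. For RFIplR minus RFIneg they were 68, and 13 with normexp, 32 with only the groups compared, 24 without slide 3, 36 and 10 within the days, and 30 to 145 with 1 pig left out. RFIplR minus RFIpl gave at most 2. Same-numbered pigs did not deviate together in all pairs (r over 0.1 in 1, 5 and 2 of 8 pairs), so the numbers were not taken as pairs. With the replicate block the EIF2AK2 difference of RFIpl minus RFIneg stayed at 0.55, and the counts were 50, 0 and 103.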
